A study of Mus musculus with 5 samples.

Results

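Small islands of compartment B lying inside compartment A were followed through 3 states of sorted hippocampal neuronal nuclei of the mouse, named Basal, Early and Late. The islands were selected on the mean of the 2 Basal libraries of Hi-C, an assay that joins and sequences pieces of DNA lying close together in the nucleus. Each library was summarised as PC1, the first principal component of its contact matrix, given as a signed score for every bin of 50 kb. An island was a run of 1 to 4 neighbouring bins with a Basal mean below 0, flanked on each side by at least 6 neighbouring bins with a Basal mean above 0. On the autosomes without chromosome 7, 91 islands met this rule. They hold 212 of 44650 bins (0.475%), or 0.894% of the 23701 bins that were in B by their Basal mean.

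All 5 libraries came from mice that carried ArcCreERT2, a tamoxifen-dependent Cre recombinase driven by the activity gene Arc, and a floxed eYFP reporter at R26R, with the genotype label +/+. They carry the same treatment label, a foot shock and tissue collection on day 0 without recall, so the states are known only by the titles. There were 2 libraries of Basal, 1 of Early and 2 of Late. The labels' protocol gives 4-hydroxytamoxifen before contextual fear conditioning for all of the mice. Nuclei were sorted after staining with antibodies to GFP and to NeuN, which marks the nuclei of neurons, and the labels do not say which GFP fraction was kept. Each group held 100000 nuclei pooled from 2 animals, and the ages of the mice are not given. PC1 holds no expression values, so the neuronal label could not be checked here. The labels speak of biological replicates without telling which animals went into which library, so p-values measure only the spread between these libraries. The depth behind each value is unknown, since read counts are not part of the tables. Local noise, the SD of a single bin, was estimated from how far a bin lay from the mean of the bins 100 kb to either side. These deviations were compared between libraries and scaled to a single bin as if bins were independent. The estimate for each library was 0.226 in Early, 0.127 and 0.129 in the Basal pair, and 0.114 (replicate 1) and 0.204 (replicate 2) in Late. Early has no replicate, so fine structure particular to Early would count as noise there. The same limit holds where libraries were weighted by local noise.

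Compartment A gathers open, transcribed chromatin, and compartment B gathers closed chromatin, much of it at the nuclear lamina. A short stretch of B inside A is a place whose contacts lean towards closed chromatin more than those of its neighbours do. In the tool's convention a positive PC1 marks A and a negative one B, and PC1 near 0 marks a place with contacts to both. Gene names and sequences could not be given for the islands, because the coordinates are of the build mm9 and the annotation used here is of another build.

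The islands were shallow in Basal. The median Basal PC1 of their bins was -0.132, against -0.857 for all bins in B, and the lowest single bin stood at -0.886. Averaged per island, 71 of the 91 lay below 0 in both Basal libraries, and the other 20 lay above 0 in one of them. A single bin of 50 kb made up 25 islands, 2 bins made up 26, 3 bins made up 25, and 4 bins made up 15. The islands of 1 bin were the least certain, since only 13 of the 25 lay below 0 in both Basal libraries, whereas all 25 islands of 3 bins did. Neighbouring bins share reads, because PC1 was computed in windows of 100 kb.

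The members nearest to 0 show where the rule stops. The island on chromosome 13 from 114200001 to 114300000 had PC1 of -0.148 and 0.144 in the Basal pair, 0.237 in Early, and 0.533 and 0.478 in the Late pair. The next was on chromosome 16 from 8250001 to 8300000, with 0.114 and -0.121 in the Basal pair, 0.312 in Early, and -0.222 and -0.344 in the Late pair. The third was on chromosome 15 from 101450001 to 101500000, with -0.167 and 0.159 in the Basal pair, 0.443 in Early, and 0.331 and 0.00861 in the Late pair. In all 3 the Basal libraries stood on opposite sides of 0. Just outside the rule lay 19 runs, 15 with a flank of 5 bins and 4 with a length of 5 bins. Those nearest to 0 were on chromosome 2 at 145550001 (-0.0552 and 0.0487 in Basal), chromosome 1 at 132800001 (-0.130 and 0.100) and chromosome 12 at 32100001 (-0.0423 and -0.0420). Of these 19 runs, 14 were in A in Early and 13 in A in both Late libraries.

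Islands were found on all 18 chromosomes analysed, at uneven density. Chromosome 1 held 9, and chromosomes 3, 8 and 15 held 8 each. Chromosome 15 had the most for its amount of A, with 8.89 islands per 1000 A bins, and chromosome 6 the fewest, with 0.731 from its single island. Chromosomes 9 and 11 held 2 each, at 1.51 and 1.75 per 1000 A bins. The islands lay apart, with a median gap of 6350 kb to the nearest other island on the same chromosome, but 20 of the 91 were within 1 Mb of another. One such cluster held 3 islands on chromosome 4, starting at 58150001, 58600001 and 59100001. The shorter of the 2 A flanks had a median of 11 bins, and in 44 islands it was 6 to 9 bins long.

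The dip of an island is its mean PC1 minus the mean of the 6 bins on each side. In Basal the dip averaged -0.640 and -0.643 in the 2 libraries. By island length it averaged -0.636 for 1 bin, -0.536 for 2 bins, -0.756 for 3 bins and -0.641 for 4 bins. Across the 91 islands the dips of the Basal libraries correlated with a Pearson r of 0.866 (Spearman's rho 0.846), and the levels with r of 0.377 (rho 0.227). The range of the levels is cut by the selection, and the points share their libraries, so these values are descriptions.

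The deepest islands sat in strongly positive A. On chromosome 5, the bin from 125100001 to 125150000 had PC1 of -0.0631 and -0.0608 in the Basal pair, -0.533 in Early, and -0.0801 and -0.303 in the Late pair, and its dip in Basal was -1.56 and -1.54. This single bin was in B in all 5 libraries and was still an island by the rule in Early and in the Late mean. On chromosome 2, the 3 bins from 26550001 to 26700000 had PC1 of -0.173 and -0.187 in the Basal pair, -0.887 in Early, and 0.453 and -0.194 in the Late pair. Its dip was -1.50 in both Basal libraries and the deepest of all islands in Early, at -1.71, and the Late libraries lay on opposite sides of 0. On chromosome 3, the 3 bins from 28750001 to 28900000 had -0.511 and -0.505 in the Basal pair, -0.772 in Early, and -0.553 and -0.648 in the Late pair. By its highest value over Early and Late this island was the lowest of all, with each of the 5 libraries below -0.5. The other 5 of the 8 deepest dips were on chromosome 18 at 82350001, chromosome 8 at 74300001, chromosome 13 at 112300001, chromosome 14 at 57750001 and chromosome 3 at 54300001. Of these, the island on chromosome 14 was the only one in A in Early and both Late libraries, with -0.278 and -0.219 in the Basal pair, 0.123 in Early, and 0.615 and 0.484 in the Late pair.

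Outside Basal the islands spread widely on both sides of 0. Island PC1 in Basal ran from -0.511 to 0.114 in replicate 1 (median -0.148) and from -0.681 to 0.193 in replicate 2 (median -0.121). In Early it ran from -1.27 to 1.33 (median 0.237), and in Late it ran from -0.666 to 1.36 in replicate 1 (median 0.159) and from -0.761 to 1.13 in replicate 2 (median 0.111). The rule held the Basal mean below 0 and set no lower limit, so it cut the Basal range at the top only. Of the 91 islands, 58 were in A in Early, with 58 and 53 in the Late pair and 9 and 11 in the Basal pair.

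**Figure D1:**
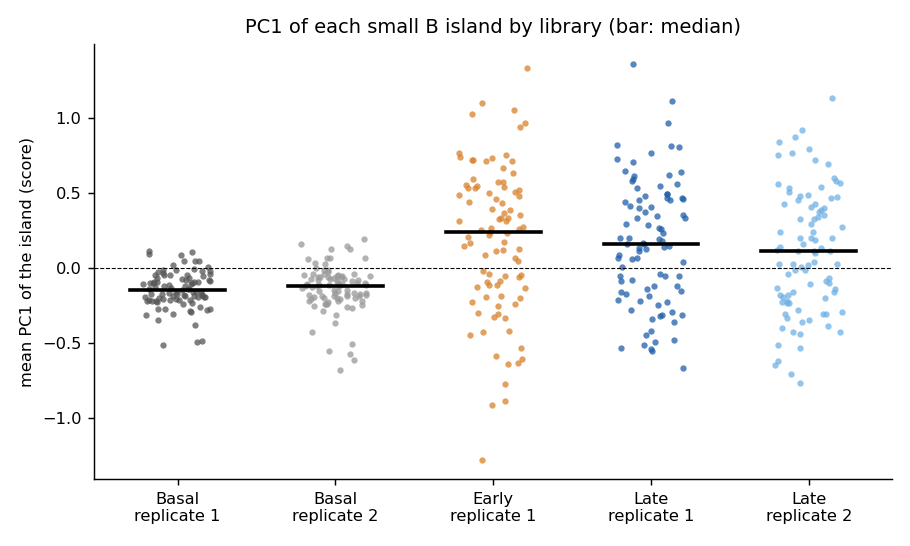
Mean PC1 (score, y axis) of each of the 91 islands, by library (x axis); each point is an island and the black bar is the median. The medians lie at -0.148 and -0.121 in the Basal pair, 0.237 in Early, and 0.159 and 0.111 in the Late pair, and the points outside Basal spread over both sides of the dashed line at 0.

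By bins, 131 of 212 (61.8%) were in A in Early, beside 12.1% of all bins in B by Basal mean. In both Late libraries 93 of 212 (43.9%) were in A, beside 6.99% of all bins in B by Basal mean. The rule used Basal, and members lie closer to 0 than most of B, so nothing is read from these gaps. The bins at the edges of long B runs, 500 outermost bins of runs of 10 or more next to at least 6 bins of A, also lie near the border. Of them, 40.0% were in A in Early and 31.2% in both Late libraries. The members' mean Basal PC1 was -0.164 and -0.173, and that of the edge bins -0.234 in both Basal libraries.

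In the mean over islands, the level differed more between Basal and the other states than its surroundings did. The rule placed islands below 0 and flanks above 0 in Basal, so this gap cannot be told apart from the choice here. Mean island PC1 was 0.134 ± 0.043 in Late, against -0.141 ± 0.0041 in Basal (SD, n = 2 libraries each), and 0.180 in the single Early library. The mean of the flanks was 0.556 ± 0.0070 in Late, against 0.501 ± 0.0065 in Basal (SD, n = 2 each), and 0.574 in Early. The mean dip was therefore shallower outside Basal, at -0.422 ± 0.036 in Late against -0.641 ± 0.0024 in Basal (SD, n = 2 each), and at -0.394 in Early. The differences in dip were 0.219 for Late minus Basal and 0.248 for Early minus Basal. These differences are given without a test, because the rule chose the islands on Basal.

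**Figure D2:**
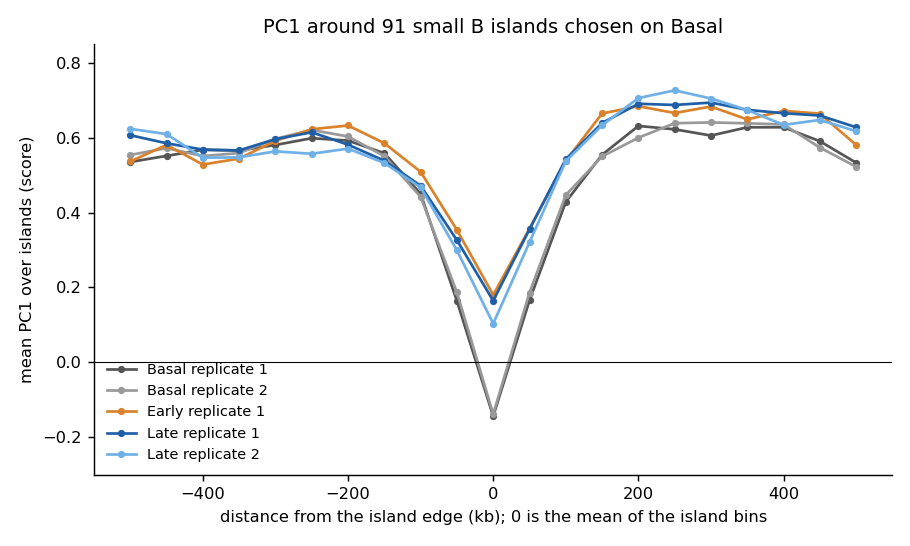
Mean PC1 over the 91 islands (score, y axis) by distance from the island edge in kb (x axis), with the island itself at 0 and 1 line per library. The Basal lines reach -0.144 and -0.138 at the island, the other 3 lines stop between 0.104 and 0.180, and all 5 lines lie between 0.522 and 0.628 at 500 kb on either side.

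A dip was still present in most islands. It was below 0 in 78 islands in the Early library, and in 80 and 82 islands in the Late pair. In each Basal library it was below 0 in all 91 islands, but the rule makes the dip negative in the Basal mean. In 67 islands the dip was below 0 in all 5 libraries, and in 48 it was below -0.2 in all 5. These counts include the Basal libraries, which the rule used. Across islands the dips of the Late libraries correlated with a Pearson r of 0.737 (Spearman's rho 0.695), and those of Early with the Late libraries with r of 0.566 and 0.577 (rho 0.551 and 0.543). The levels correlated with r of 0.796 between the Late libraries (rho 0.793) and of 0.324 and 0.407 between Early and the Late libraries (rho 0.375 and 0.423). These values are across 91 islands that share libraries and flanks, and are descriptions.

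The dip was also read in a Basal library that took no part in the choice. Islands chosen on Basal replicate 1 alone numbered 104, and their mean dip was -0.661 there and -0.542 in Basal replicate 2, against -0.396 in Early, and -0.360 and -0.368 in Late. Islands chosen on Basal replicate 2 alone numbered 98, with -0.665 there and -0.537 in Basal replicate 1, against -0.364 in Early, and -0.379 and -0.421 in Late. In both directions the Basal library that took no part in the choice kept a deeper dip than the other 3 libraries. The labels do not say whether the Basal libraries share animals, which cannot be told apart from the state here. Of the first set, 45 of 104 (43.3%) were in A in Basal replicate 2, 61.5% in Early and 64.4% in each Late library. Of the second set, 39 of 98 (39.8%) were in A in Basal replicate 1, 66.3% in Early, and 64.3% and 55.1% in Late. Against the Basal library left aside, the dip was shallower in Late by 0.178 and 0.137, and in Early by 0.146 and 0.173, in place of 0.219 and 0.248.

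The rule was also applied to each library of the other states. It found 81 islands in Late replicate 1, with a mean dip of -0.560 there, -0.414 in Late replicate 2, and -0.391 and -0.394 in Basal. It found 125 in Late replicate 2, with -0.761 there, -0.334 in Late replicate 1, and -0.398 and -0.406 in Basal. Set against the Late library left aside, the Basal dips were shallower for the first of these sets and deeper for the second. In Early, which had the highest local noise, it found 141 islands, with -0.754 there, -0.286 and -0.349 in Late, and -0.322 and -0.334 in Basal. Islands chosen on the Late mean had a dip that was 0.145 deeper in Late than in Basal. That value is read in the libraries that chose the islands, and in each set the choosing library had the deepest mean dip, so its sign cannot be told apart from the choice.

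**Figure D3:**
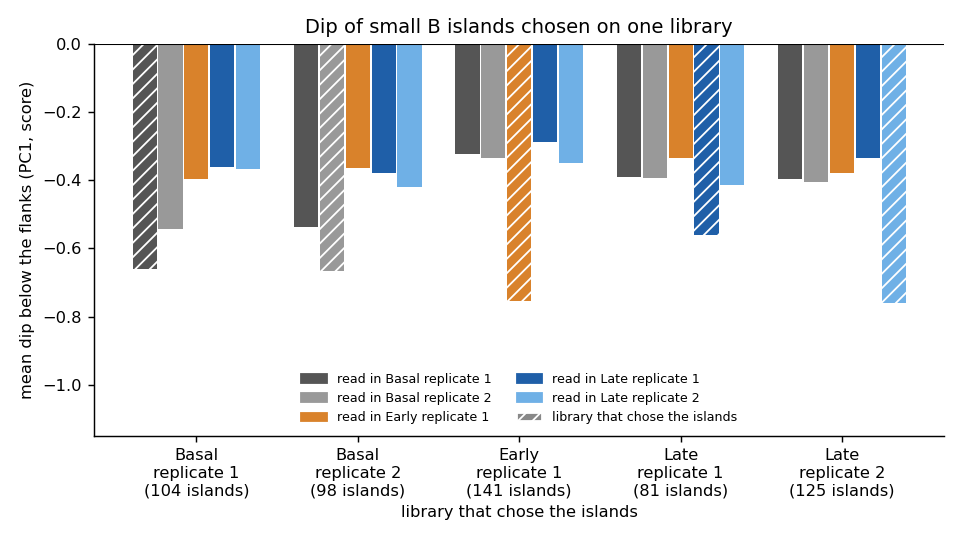
Mean dip below the flanks (PC1 score, y axis) of islands chosen on 1 library at a time (x axis, with the number of islands), read in all 5 libraries; hatched bars mark the library that chose the islands. The hatched bar is the longest in each set, and in the 2 Basal sets the next longest is the other Basal library (-0.542 and -0.537).

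The lists of islands overlapped in part, also within a state. Of the islands of Basal replicate 1, 44 of 104 (42.3%) shared a bin with an island of Basal replicate 2, which is 44.9% of the 98 islands of replicate 2. Of the islands of Late replicate 1, 20 of 81 (24.7%) shared a bin with one of Late replicate 2, and these were 16% of the 125 islands there. Between states, the islands of Basal replicate 1 that overlapped one of another library numbered 19 (18.3%) for Early, and 11 (10.6%) and 20 (19.2%) for the Late pair. Those of Basal replicate 2 numbered 20 (20.4%) for Early, and 12 (12.2%) and 20 (20.4%) for the Late pair. Of the 91 Basal islands, 20 overlapped an island of the Late mean, which is 22% of the Basal list and 23.8% of the 84 Late islands. With Early 19 were shared, 20.9% of the Basal list and 13.5% of the 141 Early islands. Single Basal libraries shared 65 of 104 (62.5%) and 64 of 98 (65.3%) with the list of the Basal mean, of which each is a part.

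Islands that no longer met the rule lay in A, in a short B run with an A flank under 6 bins, or in a longer stretch of B. In the Late mean, all bins of 46 islands were in A, 20 were still islands by the rule, 7 were short B runs with a shorter A flank, and 18 had become part of a longer B run. In Early these counts were 48, 19, 15 and 9. Late replicate 1, the least noisy library, had 53 islands with all bins in A and 21 in longer B runs, and Late replicate 2 had 45 and 15.

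**Figure D4:**
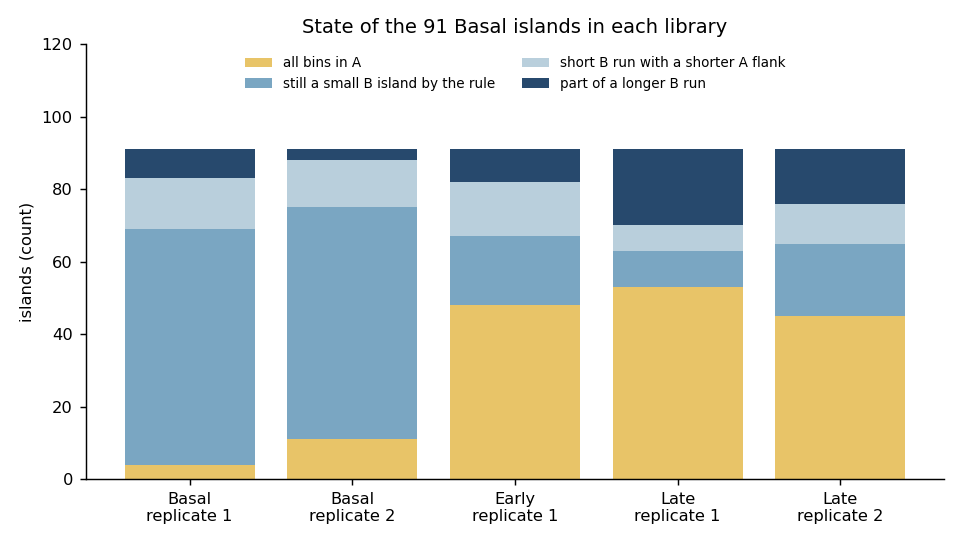
Number of the 91 Basal islands (y axis) in each of 4 conditions, by library (x axis). In Early and Late 45 to 53 islands had all bins in A, and 10 to 20 were still small B islands by the rule. The single Basal libraries kept 65 and 64, but their mean chose the islands, so nothing is read from this gap.

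The 18 islands that merged in Late lay in B runs of 250 to 7850 kb, and for 6 of them the run was 1 Mb or longer. On chromosome 2, the islands from 136250001 to 136400000 and from 142750001 to 142850000 ended in the same Late run, from 135800001 to 143650000. Over this run PC1 averaged -0.220 and -0.215 in the Basal pair, -0.323 in Early, and -0.640 and -0.501 in the Late pair, and 36.9% of its bins were in A by the Basal mean. The A bins between and around these islands in Basal were thus below 0 in the Late mean. On chromosome 16, the island from 8250001 to 8300000 lay at the end of a Late run of 800 kb whose bins were 93.8% A in Basal. That run averaged 0.238 and 0.322 in the Basal pair, -0.320 in Early, and -0.361 and -0.423 in the Late pair. On chromosome 9, the island from 52300001 to 52400000 lay in a Late run of 800 kb that averaged 0.356 and 0.258 in the Basal pair, 0.386 in Early, and -0.247 and -0.128 in the Late pair. On average this stretch was in A in Basal and Early and in B in both Late libraries.

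By sign over Early and the 2 Late libraries, 36 islands were in A in all 3 and 16 in B in all 3. A further 10 were in A in Early and in B in both Late libraries, and 10 the reverse. The Late libraries stood on opposite sides of 0 in 19 islands. Length went with these counts: 15 of the 25 islands of 1 bin were in A in all 3 libraries, against 3 of the 15 islands of 4 bins. Of the islands of 4 bins, 6 were in B in all 3 libraries. Islands of 1 bin were also nearest to 0 in Basal, at a mean of -0.0719, against -0.226 for islands of 4 bins. By bins, 33.5% of members were in A in all 3 libraries, beside 20.8% of the edge bins of long B runs. Among all other B bins the share was 4.21%. The rule used Basal, so nothing is read from these gaps.

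The islands highest after Basal were taken by their lowest value over Early and Late. On chromosome 5, the 3 bins from 76750001 to 76900000 had PC1 of -0.211 and -0.0853 in the Basal pair, 0.968 in Early, and 0.817 and 0.721 in the Late pair. On chromosome 1, the 2 bins from 121150001 to 121250000 had -0.208 and -0.190 in the Basal pair, 0.713 in Early, and 0.809 and 1.13 in the Late pair. Also on chromosome 1, the bin from 120550001 to 120600000 had -0.183 and -0.121 in the Basal pair, 1.10 in Early, and 0.639 and 0.792 in the Late pair. In these 3 islands every library outside Basal stood above 0.6 and both Basal libraries below 0. Their flanks were higher outside Basal too. On chromosome 5 the flanks averaged 0.350 in Basal, 1.21 in Early and 0.831 in Late. On chromosome 1 these means were 0.306, 0.907 and 1.16 at 121150001, and 0.496, 0.836 and 0.913 at 120550001. The other 5 were on chromosome 13 at 60250001 and 48200001, chromosome 10 at 20850001, chromosome 3 at 37000001 and chromosome 15 at 87850001. Their lowest values over Early and Late ran from 0.498 to 0.581. On chromosome 10, the dip was -0.726 and -0.757 in the Basal pair, -0.213 in Early, and -0.190 and -0.0935 in Late, so the bins lay in A but below their flanks.

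The islands lowest in B after Basal were taken by their highest value over Early and Late. After the one on chromosome 3 at 28750001, the next was on chromosome 18 from 23250001 to 23450000, which stood at -0.487 and -0.569 in the Basal pair, -0.914 in Early, and -0.444 and -0.510 in the Late pair. On chromosome 15, the 4 bins from 91650001 to 91850000 had -0.216 and -0.218 in the Basal pair, -0.223 in Early, and -0.224 and -0.302 in the Late pair. These levels spanned the narrowest range over the 5 libraries among the 8 islands, while its dip was -0.722 and -0.740 in the Basal pair, -0.378 in Early, and -0.428 and -0.380 in Late. The other 5 were on chromosome 2 at 136250001 and 142750001, chromosome 18 at 25400001, chromosome 3 at 33400001 and chromosome 1 at 54300001. On chromosome 2, the flanks of the island at 136250001 averaged -0.349 and those of the island at 142750001 -0.295 in Late.

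Late and Early were compared with a test, since the rule used the values of neither group. The Basal libraries, which the rule used, entered this fit through its shared estimate of the spread, and the rule itself was set with earlier results of these data known. In limma, fitted over 47652 bins, 19 of 212 member bins (8.96%) passed an adjusted p of 0.05 as higher in Late, beside 6.28% of all bins, and 29 (13.7%) as lower, beside 6.44%. The called bins lay in 13 islands that were higher and 19 that were lower in Late, with a median difference of 0.886 (median SE 0.163) and -0.726 (median SE 0.151). The other 59 islands had no called bin. The median difference over all member bins was -0.0361, beside -0.00299 over all bins, with 54.2% of member bins lower in Late.

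Bins elsewhere also had calls in this comparison. Of the edge bins of long B runs, 11% were called higher and 8.60% lower in Late. Of the 12174 other B bins within the members' range of Basal PC1, 5.64% were called higher and 10.0% lower. Most of these lay deeper in B, with a median of -0.517 and -0.507 in the Basal pair, against -0.161 and -0.147 for member bins. Bins of the 152 small A islands inside B, chosen by the mirrored rule, were called higher in 7.02% and lower in 5.56%. Bins of 1 island are not independent, and the spread of Early, with 1 library, was taken from that of Basal and Late. The members' 48 calls were 22.6% of their bins, beside 12.7% of all bins called in either direction. With libraries weighted by local noise 6 were called (4 higher and 2 lower in Late), 2.83% of member bins beside 2.10% of all bins. Without Late replicate 1 the count was 82 (38.7%, beside 23.1% of all bins), and without Late replicate 2 it was 84 (39.6%, beside 26.5%). The members' calls became 0 when all sequences with chromosome 7 as deposited entered the fit (80 at an unadjusted p under 0.05). That fit called 0 of all bins too. Members' calls were also 0 when a running mean over 1 Mb was subtracted (66 at an unadjusted p under 0.05). There 0.0294% of all bins were called.

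**Figure D5:**
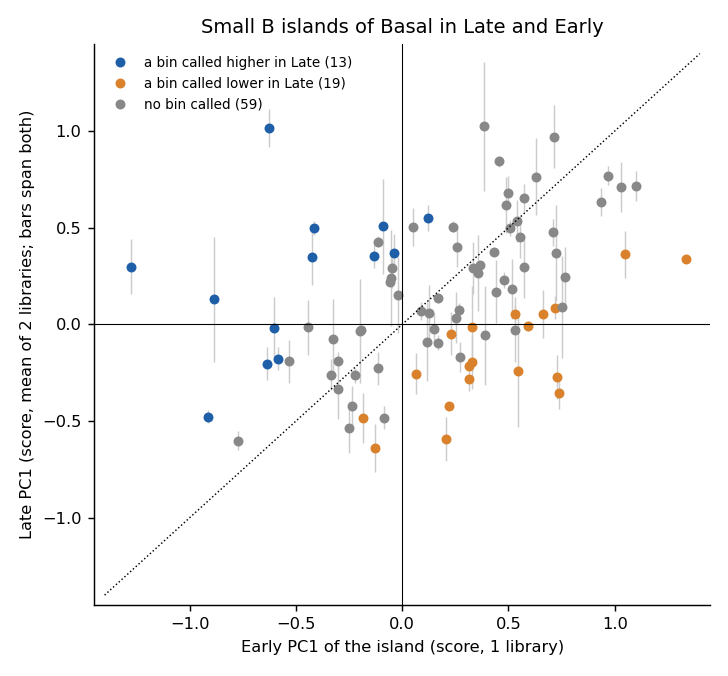
PC1 of each island in Late (score, y axis, mean of 2 libraries with bars spanning both) against Early (score, x axis, 1 library), with the dotted line of equal values. Colours mark islands with a bin called higher in Late (13) or lower in Late (19), and 59 islands had no called bin. Calls were made per bin, so some islands with a called bin lie nearer to the line than some without.

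Among islands higher in Late, chromosome 16 from 43000001 to 43100000 led, at 1.11 and 0.920 in Late against -0.628 in Early, and -0.220 and 0.0676 in Basal. Its 2 bins differed by 1.64 on average (limma adjusted p up to 0.0036), and the Late libraries stood far above Early. Its flanks differed too, at 0.842 in Late against -0.133 in Early. On chromosome 15, the island from 77400001 to 77500000 had 0.439 and 0.158 in Late against -1.27 in Early, and -0.0173 and -0.0379 in Basal, and differed by 1.57 (limma adjusted p up to 0.00438). This was the lowest value of any island in Early, and its flanks averaged 0.789 in Late against -0.109 in Early. The deep island on chromosome 2 from 26550001 to 26700000, with 0.453 and -0.194 in Late against -0.887 in Early, differed by 1.02 (limma adjusted p up to 0.0402, with 3 of 3 bins called). The others were on chromosome 8 at 92600001 (difference 0.915, limma adjusted p 0.0128) and chromosome 4 at 59100001 (difference 0.774, limma adjusted p 0.0272). In both, Early alone was below -0.4. Flanks averaged 0.489 in Late against 0.0232 in Early on chromosome 8, and 0.718 against 0.573 on chromosome 4.

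Among islands lower in Late, chromosome 3 from 54300001 to 54400000 led, at -0.277 and -0.438 in Late against 0.737 in Early, and -0.105 and -0.0604 in Basal. The mean difference was -1.09 (limma adjusted p up to 0.0104), and Early alone was in A. Its dip was -0.890 and -1.02 in Late against -0.224 in Early, while the flanks averaged 0.597 in Late against 0.961 in Early. On chromosome 3, the bin from 39400001 to 39450000 had -0.158 and -0.384 in Late against 0.729 in Early (difference -1.0, limma adjusted p 0.0170), with -0.207 and 0.193 in Basal. On chromosome 16, the bin from 93200001 to 93250000 had 0.352 and 0.324 in Late against 1.33 in Early. The difference was -0.995 (limma adjusted p 0.00697), and the bin was in A in each of these libraries. Its flanks differed too, at 0.622 in Late against 1.41 in Early. The 4 bins on chromosome 12 from 90750001 to 90950000 had -0.481 and -0.707 in Late against 0.205 in Early (difference -0.798, limma adjusted p up to 0.0324), with flanks of -0.392 in Late against 0.685 in Early. On chromosome 17, from 63950001 to 64150000, 3 of 4 bins were called (difference -0.788, lowest limma adjusted p 0.0259), with the Late libraries apart at -0.529 and 0.0428 against 0.545 in Early.

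All 10 of these islands kept a called bin without each Basal or Late library in turn. With libraries weighted by local noise 4 kept one: chromosome 16 at 43000001 and 93200001, chromosome 15 at 77400001 and chromosome 3 at 54300001. In the 6 that lost it the difference kept its sign and a similar size, as on chromosome 2 at 26550001 (1.19 with weights, lowest limma adjusted p 0.0542) and chromosome 12 at 90750001 (-0.739 with weights, lowest limma adjusted p 0.0612). Subtracting a running mean over 10 Mb ended the calls on chromosome 4 at 59100001 (difference 0.572, limma adjusted p 0.0719) and chromosome 17 at 63950001 (difference -0.509, lowest limma adjusted p 0.0624). Over 1 Mb it ended all 10, and on chromosome 12 at 90750001 the difference turned to 0.160.

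The contrasts with Basal were used by the rule and are given as descriptions only. For Late minus Basal, limma called 58 of 212 member bins (27.4%) higher in Late, beside 8.78% of all bins, and 11 (5.19%) lower, beside 7.63%. For Early minus Basal it called 66 (31.1%) higher in Early, beside 9.97% of all bins, and 5 (2.36%) lower, beside 9.98%. The median difference over member bins was 0.261 for Late minus Basal and 0.310 for Early minus Basal, and nothing is read from these values. Both contrasts share the Basal libraries. The Late minus Basal count of 69 (16.4% of all bins called in either direction) became 25 without Basal replicate 1 (5.54% of all bins) and 29 without Basal replicate 2 (5.96%). The Early minus Basal count of 71 (19.9% of all bins) became 38 and 40 without these libraries (8.91% and 9.43%), and 113 without either one of the Late libraries (37.5%). The share of all bins called moved in the same direction as the members' count in each of these fits.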

How the data were processed

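Hi-C of sorted mouse hippocampal neuronal nuclei was given as 5 tables, 1 per library. The deposited PC1 is a signed score per bin of 50 kb, made with HOMER on mm9, per the submitters' processing notes. HOMER's version, the aligner, the filters on reads and the setting of the sign are not given here, since the labels do not state them. On each chromosome PC1 had an SD near 1, which takes away any difference in overall strength.

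Bins with a value in all 5 tables were kept. Chromosomes entered the fit where every pair of libraries correlated at 0.5 or more, which left out chromosome 7 and kept 18 autosomes and X. Coordinates are 1-based. Each bin was tested with limma 3.58.1 (R 4.3.3) on the deposited PC1. All 5 libraries shared 1 fit of group means, with 2 residual and 6.60 prior degrees of freedom. Tests were 2-sided, and p-values were adjusted by Benjamini-Hochberg over 47652 bins, with calls at 0.05. Neighbouring bins are not independent. Dips, overlaps and counts were computed in Python 3.11.15 with numpy 2.4.6 and pandas 2.3.3. An exact permutation test of 2 libraries against 1, or of 2 against 2, cannot go below p = 0.333, so library means carry no test. The fit and the island search were run on simulated data with planted changes and planted islands. The simulated bins for the fit were independent and had a common SD, unlike the real bins. False calls in the real data were therefore not judged from them.

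The members, the rule and the lists were chosen with earlier results of these data known. Named islands were the 8 with the deepest Basal dip, the 8 highest by their lowest value over Early and Late, the 8 lowest by their highest value, up to 5 per direction with a bin called in Late minus Early by mean difference, and the 3 nearest to 0, with the 3 runs just outside the rule. Gene lists planned for the islands were not used, since no annotation of mm9 was at hand. Alternatives were other scalings, bins, weights, thresholds, rules and left-out libraries. Subtracting a 1 Mb running mean, and choosing islands on Late or Early, were added after seeing the data.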

Additional observations from a re-analysis of the deposited data

How the results depend on the processing

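The mean dip, Late minus Basal, was 0.219, and moved to 0.178 and 0.137 for islands chosen on Basal replicate 1 or 2 and read in the other; it was 0.0107 for islands chosen on Early and -0.145 for islands chosen on the Late mean, whose sign cannot be told apart from the choice. Early minus Basal (0.248) was 0.146 and 0.173 in the held-out Basal libraries, 0.292 for islands with a Basal mean below -0.1, 0.185 after quantile normalization, 0.0635 for islands chosen on the Late mean and -0.426 for islands chosen on Early. Late minus Early (-0.0283), within the spread between the Late libraries (SD 0.0362), was 0.0326 for islands chosen on Basal replicate 1, 0.0208 after quantile normalization, -0.208 for those chosen on the Late mean and 0.437 for those chosen on Early. The number of islands (91) was 47 with flanks of at least 10 bins, 51 with runs of 1 to 2 bins, 53 with a Basal mean below -0.1, and 141 when chosen on Early. Islands in A in every Late library (50.5%) were 58.0% with flanks of at least 4 bins, 62.7% with runs of 1 to 2 bins, 43.4% with a Basal mean below -0.1, 43.7% when below 0 in both Basal libraries, 46.6% with chromosome medians aligned, and 58.2% and 63.7% in Late replicates 2 and 1 alone. Islands in A in Early (63.7%) were 70.2% with flanks of at least 10 bins, 68.6% with runs of 1 to 2 bins and 55.7% after quantile normalization.

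Member bins called in Late minus Early (48) numbered 73 at an adjusted p of 0.1 (22.3% of all bins), 6 with noise weights (2.10% of all bins), and 35 to 84 without 1 library (7.97% to 26.5% of all bins). With all sequences and chromosome 7 as deposited, limma called 0 in Late minus Early and 0 in Late minus Basal (80 and 93 at an unadjusted p under 0.05). In Early minus Basal it called 16. Of all bins, that fit called 0, 0 and 4.12% in these contrasts. With a 1 Mb running mean subtracted limma called 0, 0 and 8 (66, 77 and 78 at an unadjusted p under 0.05). The shares of all bins there were 0.0294%, 0.0042% and 0.701%. Noise weights gave 29 in Early minus Basal (7.23% of all bins). Without 1 library, Late minus Basal ranged from 25 to 98 (5.54% to 30.2% of all bins) and Early minus Basal from 38 to 113 (8.91% to 37.5%). Among the named islands, the difference on chromosome 12 at 90750001 turned to 0.160 with the 1 Mb mean subtracted. The cause of these changes was not tested. With the replicate number as a block, 49, 74 and 69 member bins were called in Late minus Early, Late minus Basal and Early minus Basal. The shares of all bins called in that fit were 12.2%, 18.4% and 20.1%. The replicate numbers pair no libraries in the labels, and the deviations of same-numbered Basal and Late libraries correlated at 0.0111 across autosomal bins. No depth is known for any library.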

Other observations

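The same rule applied to chromosomes outside the set gave further islands. On X it found 14 islands with 33 bins, with a mean dip of -0.709 and -0.811 in the Basal pair, -0.264 in Early, and -0.340 and -0.360 in the Late pair. Of these 14, 8 were in A in Early, 8 in A in Late replicate 1 and 7 in A in Late replicate 2, but 8 were also above 0 in Basal replicate 1, where X values differ from Basal replicate 2. Chromosome 7, where Basal replicate 1 and Late replicate 1 correlated at -0.925 across bins, held 1 island. The sex of the mice is not given, so on X it cannot be told apart from the state.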
